A study of Mus musculus with 21 samples.

Results

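Prostaglandins are made, inactivated and sensed by the products of a small set of genes, and 9 of them were followed here in mouse colon and in colon tumours. They are Ptgs1 and Ptgs2 (the cyclooxygenases COX-1 and COX-2), Ptges and Ptgis (synthases of prostaglandin E2 and of prostacyclin), Hpgd (15-hydroxyprostaglandin dehydrogenase, the enzyme that starts prostaglandin breakdown) and Ptger1, Ptger2, Ptger3 and Ptger4 (the receptors EP1 to EP4 for prostaglandin E2). The genes were taken by symbol from a table of read counts per gene, where they are 9 of 24062 genes, and all 9 had enough counts to be among the 15936 genes tested.

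Colon RNA was sequenced from C57BL/6 mice that were wild-type or were App NL-G-F knock-in mice, whose amyloid precursor protein gene carries mutations linked to Alzheimer's disease. Tumours came from mice given AOM/DSS, the carcinogen azoxymethane followed by the colitis-inducing dextran sulfate sodium, and normal colon libraries were labelled as not treated. The text on the design speaks of normal tissue beside tumours or from mice without tumours, and no label says which normal library is of which kind, so the contrast of tumour and normal colon cannot be told apart from the contrast of treated and untreated. The question behind the series was why the treatment had a different outcome in the App mutant background. There were 7 groups of 3 libraries: wild-type male normal colon and tumour, knock-in male normal colon and tumour, and females as wild-type normal colon, wild-type tumour and knock-in normal colon. Tumours of knock-in females were not analysed here. A gene count does not show the App mutations, the ages of the mice were not given in the labels, and nothing in the labels says that the 3 libraries of a group came from 3 animals, so p-values measure the spread between these libraries.

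A cyclooxygenase turns arachidonic acid into prostaglandin H2, from which terminal synthases make prostaglandin E2, prostacyclin and related lipids. COX-1 is made steadily in many tissues, whereas COX-2 is induced by growth factors, cytokines and injury and is well known for its high level in colorectal tumours. Prostaglandin E2 acts on its 4 receptors until it is taken up into cells and oxidised by 15-hydroxyprostaglandin dehydrogenase, an enzyme of differentiated colon epithelium that is often low in colon cancer.

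Library totals ran from 3414123 counts in library 2 of the wild-type male tumours to 26174008 in library 1 of the wild-type female normal colon. The ribosomal RNA precursor Rn45s took 2.84 to 14.1% of the counts, and the lowest 3 shares, up to 3.18%, were those of wild-type female normal colon. In these bulk samples, fewer cells of a type and less RNA per cell cannot be told apart. Markers of smooth muscle separated tumours from normal colon: the summed level of 10 markers was 2038 to 10033 CPM, the usual per-library scaling of read counts (to the TMM-scaled library total), in the 12 normal libraries and 214 to 1074 CPM in the 9 tumour libraries, with no marker at 0 in any library. The 7 epithelial markers, checked for the labelled tissue, summed to 5968 to 8241 CPM in normal colon and 4716 to 6428 CPM in tumours.

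In tumours of wild-type males and females Ptgs2 and Ptges were higher and Hpgd and Ptger3 lower, and in knock-in males Ptgs2 and Ptger3 passed the threshold of these 4. Their promoter windows are shown because these genes passed the threshold in both wild-type tumour comparisons. Each runs from 250 bases before to 50 bases after the transcription start in RefSeq (build GRCm38.p6), 5′ to 3′ on the strand of the gene, with capitals marking the motifs found. The windows are chr1:150099781-150100080 (plus strand) for Ptgs2, chr2:30903248-30903547 (minus strand) for Ptges, chr8:56294302-56294601 (plus strand) for Hpgd and chr3:157566626-157566925 (plus strand) for Ptger3.
Ptgs2: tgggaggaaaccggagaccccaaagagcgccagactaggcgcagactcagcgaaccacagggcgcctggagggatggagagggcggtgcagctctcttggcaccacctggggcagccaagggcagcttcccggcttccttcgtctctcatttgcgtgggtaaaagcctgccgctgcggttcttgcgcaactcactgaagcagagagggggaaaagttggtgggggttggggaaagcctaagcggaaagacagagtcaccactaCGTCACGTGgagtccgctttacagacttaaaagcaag
Ptges: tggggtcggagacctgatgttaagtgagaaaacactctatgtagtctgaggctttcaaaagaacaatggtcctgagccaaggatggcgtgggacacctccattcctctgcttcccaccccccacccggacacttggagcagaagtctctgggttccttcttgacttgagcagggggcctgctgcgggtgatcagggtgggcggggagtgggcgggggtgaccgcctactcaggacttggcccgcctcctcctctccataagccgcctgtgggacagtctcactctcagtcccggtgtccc
Hpgd: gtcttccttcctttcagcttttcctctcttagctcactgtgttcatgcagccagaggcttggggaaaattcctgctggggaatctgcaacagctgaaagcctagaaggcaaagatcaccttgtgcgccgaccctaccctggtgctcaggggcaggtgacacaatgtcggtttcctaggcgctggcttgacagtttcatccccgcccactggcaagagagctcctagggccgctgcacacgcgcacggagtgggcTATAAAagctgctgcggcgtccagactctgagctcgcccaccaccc
Ptger3: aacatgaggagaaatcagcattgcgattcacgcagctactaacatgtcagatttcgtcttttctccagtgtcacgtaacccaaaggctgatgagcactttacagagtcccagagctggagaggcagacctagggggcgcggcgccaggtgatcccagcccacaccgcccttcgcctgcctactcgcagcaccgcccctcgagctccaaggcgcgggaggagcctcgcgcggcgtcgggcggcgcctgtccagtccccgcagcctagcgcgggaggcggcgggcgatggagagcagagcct

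The capitals in the Ptgs2 window hold 2 overlapping motifs. The core of the cAMP response element, TGACG, lies on the minus strand at bases 264 to 268 of the window, and the E-box CACGTG lies at bases 267 to 272. In the Hpgd window the capitals are TATAAA, the letters of a TATA box, at bases 255 to 260. All these matches lie downstream of the RefSeq transcription start, at offsets of 13 to 21 bases in Ptgs2 and 4 to 9 bases in Hpgd. A working TATA box lies upstream of the start. The gene annotation, however, starts Hpgd further downstream, at chr8:56294585, and the TATAAA lies upstream of that start. For Ptges, the window lies inside the annotated span of the gene, downstream of its annotated start at chr2:30929863, so it is not the window of that start. Of 32851 RefSeq promoter windows of this length, 20.8% held TGACG, 7.15% held CACGTG and 13.6% held TATAAA on either strand. Windows were present for 7 of the 9 genes, without Ptgis and Ptger1, and in these 7 there was no further match to these 3 motifs and none to the full cAMP response element TGACGTCA (1.79% of all windows), the AP-1 motif TGAGTCA (5.2%) or the TCF/LEF motifs CTTTGAT (3.73%) and CTTTGAA (5.14% of all windows). A match is a description of these letters, not a binding site.

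**Figure D1:**
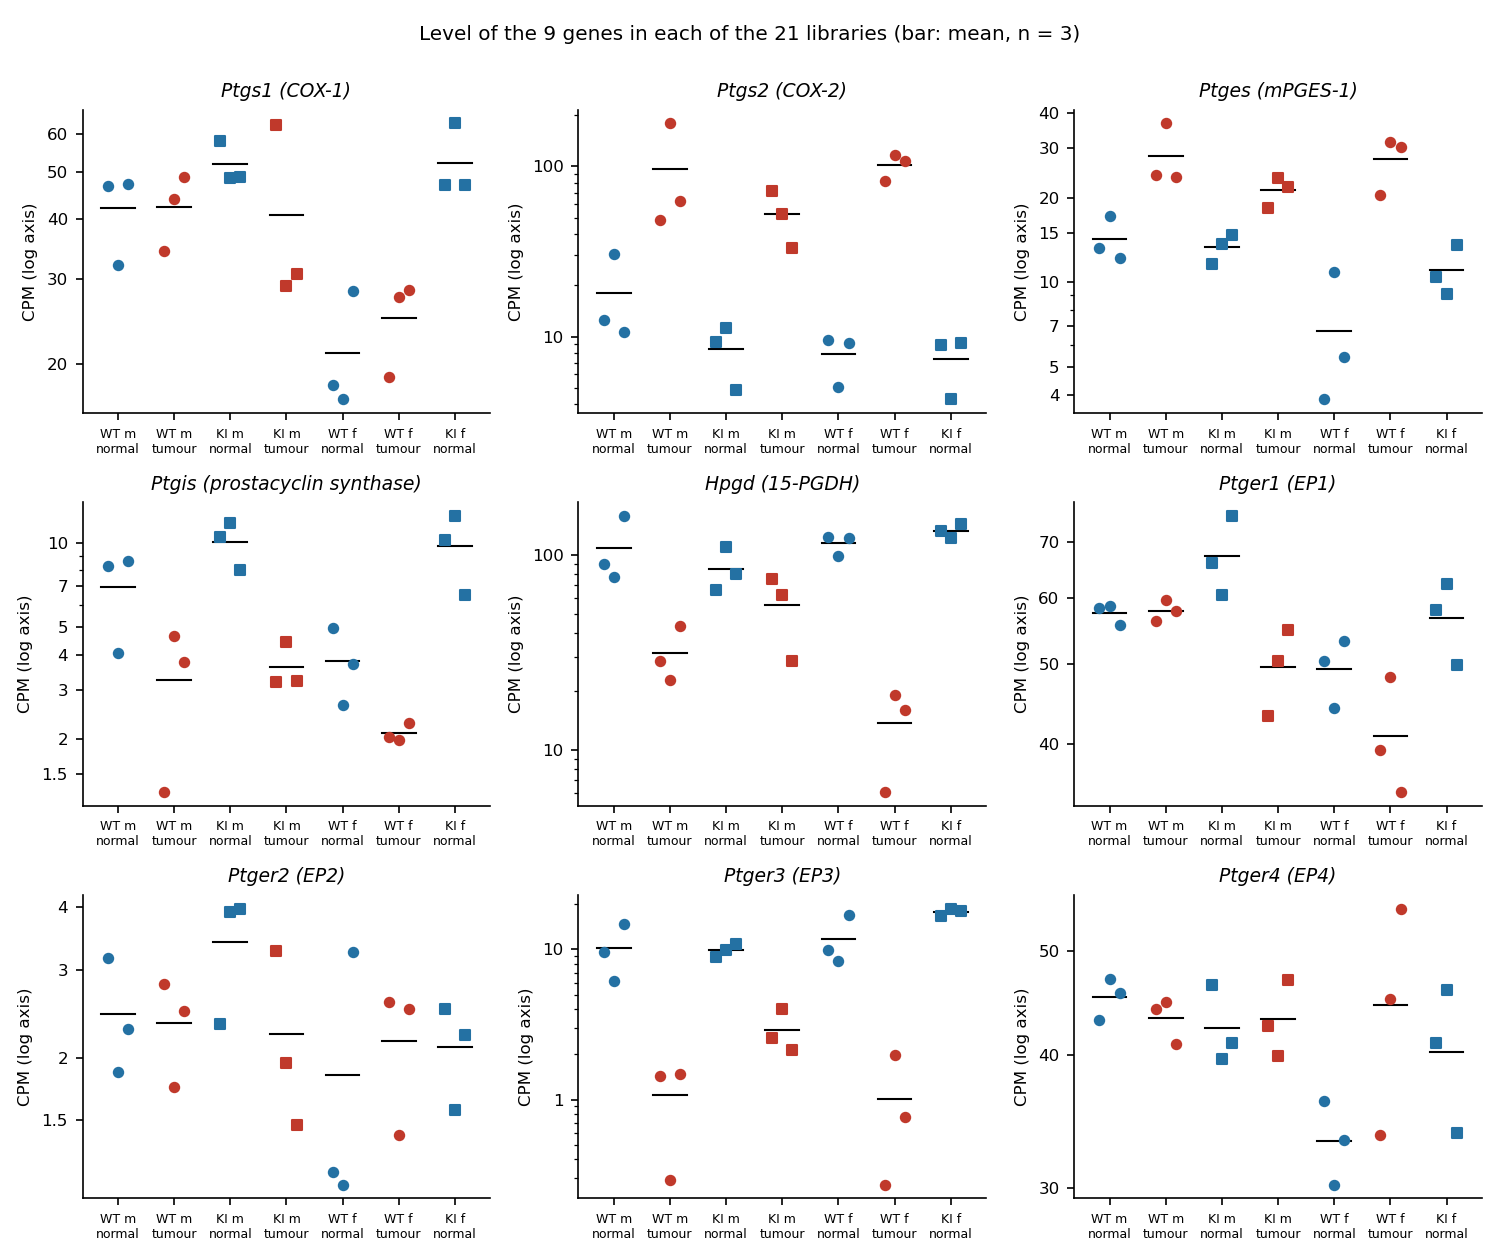
Level of each gene in CPM (log axis) in the 21 libraries, by group (WT, wild-type; KI, App knock-in; m, male; f, female), with blue for normal colon, red for tumours, squares for knock-in and a bar at the mean of 3 libraries. Ptgs2 was at 33.3 CPM or more in every tumour library and at 30.7 CPM or less in every normal library, and Ptger3 was at 6.14 CPM or more in every normal library and at 4.02 CPM or less in every tumour library.

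Per kilobase of exon, Hpgd was the most abundant of the 9 genes in normal colon and Ptger2 the least. In wild-type male normal colon, Hpgd had 64.4 ± 25.8 CPM per kb (SD, n = 3), Ptgs1 10.8 ± 2.22, Ptger1 10.5 ± 0.293, Ptger4 6.81 ± 0.306, Ptgs2 3.92 ± 2.42, Ptges 3.62 ± 0.659, Ptgis 2.72 ± 0.996, Ptger3 1.78 ± 0.759 and Ptger2 0.47 ± 0.127. In wild-type female tumours the order was changed at the top: Ptgs2 had 22.3 ± 3.79 CPM per kb and Hpgd 8.18 ± 4.05, while Ptger3, at 0.177 ± 0.155, had passed below Ptger2, at 0.416 ± 0.127. These orders compare means over 3 libraries and carry no test.

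Tumours differed from normal colon in the same 4 genes in wild-type males and wild-type females: Ptgs2 and Ptges rose, and Hpgd and Ptger3 fell. In knock-in males Ptgs2 rose and Ptger3 fell, and the changes of Ptges and Hpgd had the same signs but missed the threshold. By the quasi-likelihood test of edgeR, with p-values adjusted over all genes tested (Benjamini-Hochberg) and a threshold of 0.05, wild-type males had 5 of 9 genes past the threshold (2 higher, 3 lower), where 35.7% of all genes tested passed. The count was 4 of 9 in knock-in males (1 higher, 3 lower) against 20.4% of all genes, and 5 of 9 in wild-type females (3 higher, 2 lower) against 49.1%. The median log2 fold change of the 9 genes was -0.02, -0.44 and 0.25 in these 3 comparisons, beside 0.01 over all genes tested in each.

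**Figure D2:**
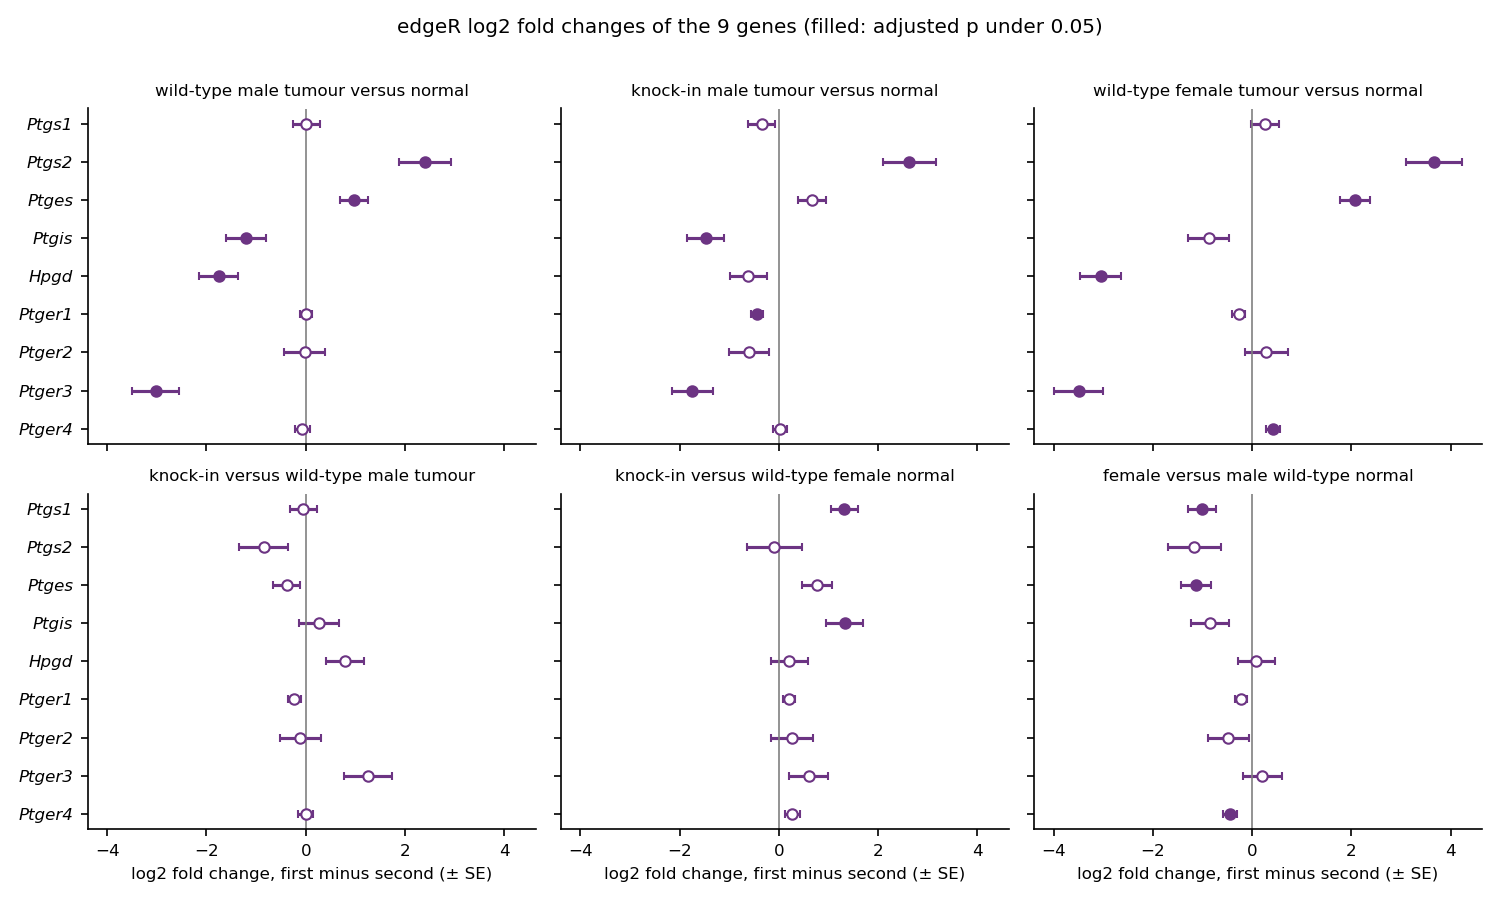
Log2 fold changes of the 9 genes (x axis, first group minus second, with the standard error) in 6 of the 9 comparisons from edgeR, filled where the adjusted p was under 0.05. Ptgs2 and Ptger3 are filled on opposite sides in all 3 tumour panels, and Ptgs1 is filled only in the knock-in and sex comparisons of female normal colon.

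Ptgs2 (chr1:150100031-150108227, plus strand, build GRCm38) encodes the inducible cyclooxygenase. In wild-type males it had 12.5, 30.7 and 10.6 CPM in normal colon and 48.5, 179 and 62.4 CPM in tumours. Knock-in males had 9.35, 11.2 and 4.84 CPM in normal colon and 71.9, 52.6 and 33.3 CPM in tumours. Every tumour library lay above every normal library within each genotype and sex, and library 2 stood highest in both wild-type male groups. Wild-type females had 9.51, 5.02 and 9.14 CPM in normal colon and 82.6, 116 and 107 CPM in tumours, with the smallest SD of the tumour groups (17.4 CPM). Ptgs2 rose in tumours of wild-type males by 2.40 on the log2 scale (SE 0.52, edgeR adjusted p = 0.00223), a 5.28-fold difference. The rise was 2.63 in knock-in males (SE 0.53, edgeR adjusted p = 0.00501). Wild-type female tumours had the largest rise of the 3 comparisons, 3.67 (SE 0.56, edgeR adjusted p = 6.03e-05), or 12.7-fold. Without library 2 of the wild-type male tumours, which is also the shallowest library, the wild-type male change was 1.63 (edgeR adjusted p = 0.013), and without library 2 of the wild-type male normal colon it was 3.02 (edgeR adjusted p = 0.00096). The 6 markers of neutrophils, cells that make COX-2 when activated, summed to 3.68 to 45.5 CPM in normal colon and 65.2 to 227 CPM in tumours, and 2, 0 and 6 of them passed the threshold as higher in the 3 comparisons. Their part in the Ptgs2 result was not tested.

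Ptgs1 (chr2:36230426-36252272, plus strand), the steadily expressed cyclooxygenase, passed the threshold in none of the tumour comparisons. Wild-type males had 46.7, 32.0 and 47.3 CPM in normal colon and 34.3, 43.9 and 48.7 CPM in tumours, and the groups overlapped. Its log2 change was 0.01 (SE 0.27, edgeR adjusted p = 0.988) in males of the wild type and 0.25 in the females (SE 0.28, edgeR adjusted p = 0.477). Knock-in male tumours had 62.5, 29.0 and 30.6 CPM against 58.1, 48.5 and 48.9 CPM in normal colon. Library 1 of these tumours was above all 3 normal libraries and the other two were below them: the log2 change was -0.35 (edgeR adjusted p = 0.368) and became -0.85 (edgeR adjusted p = 0.0235) without library 1.

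The share of Ptgs2 among the 2 cyclooxygenases was higher in tumours. Ptgs2 took 18.4 to 48.9% of the counts of both genes in wild-type male normal colon and 56.2 to 80.3% in tumours, 9.0 to 18.8% and 52.1 to 64.5% in knock-in males, and 22.9 to 34.5% and 79.1 to 81.5% in wild-type females. Knock-in female normal colon had the lowest share of a single library, 6.34% (95% Wilson interval 4.66 to 8.59%). The highest share in normal colon, 48.9% (95% Wilson interval 45.6 to 52.3%), belonged to library 2 of the wild-type males and stayed below all tumour libraries of that group. These intervals cover counting error only. Per kilobase of exon, which sets the 2 genes on 1 scale, the Ptgs2 share was 5.43 to 44.8% in normal colon, 52.1 to 78.9% in wild-type tumours and 49.4, 60.6 and 47.9% in knock-in male tumours, so 2 of the 3 knock-in tumours had less Ptgs2 than Ptgs1.

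**Figure D3:**
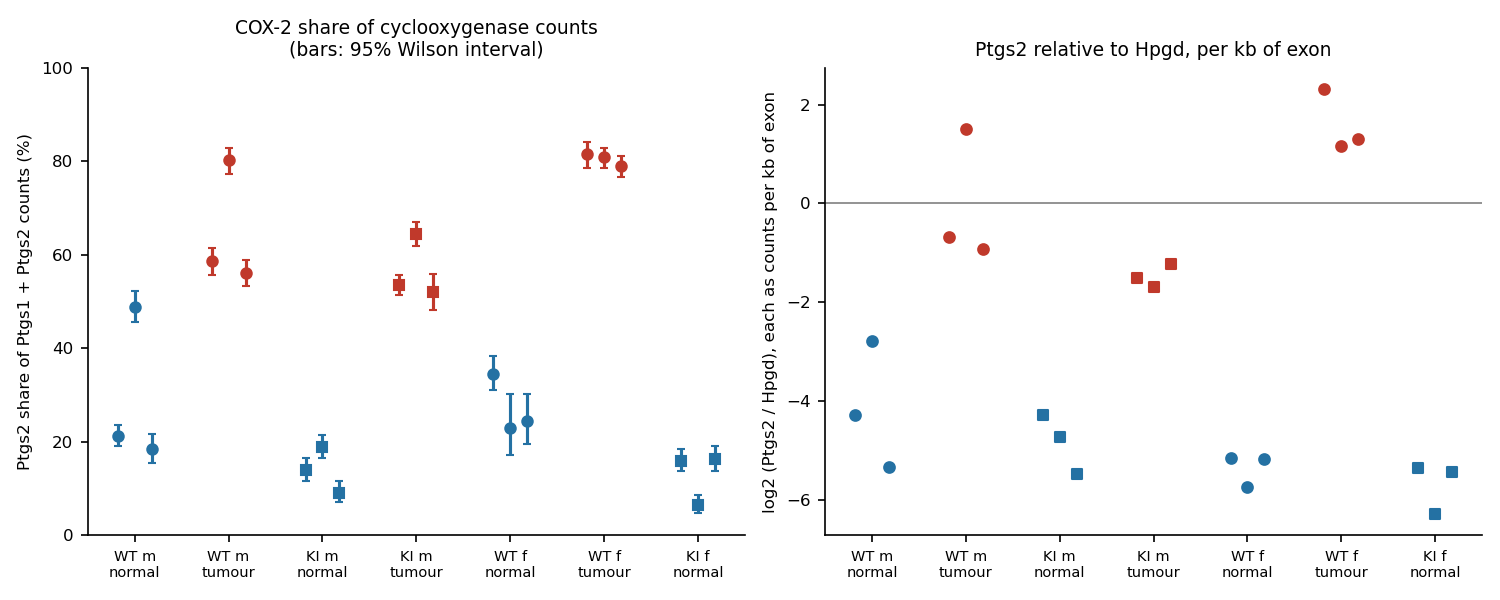
Left, the share of Ptgs2 in the counts of Ptgs1 and Ptgs2 (%) in each library with its 95% Wilson interval; right, the log2 ratio of Ptgs2 to Hpgd, each per kb of exon. Blue is normal colon, red tumour and squares knock-in; tumours lie at 52.1% or more on the left, and in the right panel 4 of 6 wild-type tumours lie above 0 and all knock-in tumours and normal libraries below it.

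Ptges (chr2:30889471-30929863, minus strand) encodes microsomal prostaglandin E synthase, which works downstream of COX-2 and is induced by similar signals. Wild-type females had 3.85, 10.9 and 5.42 CPM in normal colon and 20.4, 31.6 and 30.2 CPM in tumours. In wild-type males the values were 13.3, 17.1 and 12.2 CPM in normal colon and 24.1, 36.7 and 23.8 CPM in tumours. Tumour and normal libraries did not overlap in either sex, with library 2 highest in each of these 4 groups. Ptges rose by 2.08 on the log2 scale in wild-type female tumours (SE 0.30, edgeR adjusted p = 2.02e-05) and by 0.97 in wild-type male tumours (SE 0.28, edgeR adjusted p = 0.0128). The male change was 0.75 (edgeR adjusted p = 0.0665) without tumour library 2 and 0.87 (edgeR adjusted p = 0.06) without normal library 3. Knock-in males had 11.6, 13.7 and 14.7 CPM in normal colon and 18.4, 23.5 and 21.8 CPM in tumours, which also did not overlap, and the log2 change of 0.67 (SE 0.28) missed the threshold (edgeR adjusted p = 0.0921).

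Ptgis (chr2:167191805-167240604, minus strand) encodes prostacyclin synthase, an enzyme of vessel walls and smooth muscle. It was a low gene: knock-in males had 10.5, 11.8 and 8.04 CPM in normal colon and 3.20, 4.44 and 3.23 CPM in tumours. Wild-type males had 8.27, 4.04 and 8.66 CPM in normal colon and 1.30, 4.66 and 3.78 CPM in tumours. The knock-in groups were apart, while tumour library 2 of the wild-type males reached above normal library 2. Ptgis fell by 1.47 on the log2 scale in knock-in males (SE 0.37, edgeR adjusted p = 0.0124) and by 1.20 in wild-type males (SE 0.40, edgeR adjusted p = 0.0246). Each of 3 libraries decided the wild-type male call: the log2 change was -1.07 (edgeR adjusted p = 0.0728) without normal library 1, -1.03 (edgeR adjusted p = 0.0923) without normal library 3 and -0.77 (edgeR adjusted p = 0.131) without tumour library 1. In wild-type females, with 4.99, 2.65 and 3.72 CPM in normal colon and 2.04, 1.99 and 2.28 CPM in tumours, the log2 change of -0.87 (SE 0.41) missed the threshold (edgeR adjusted p = 0.0851).

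Hpgd (chr8:56294585-56321043, plus strand) encodes the enzyme that oxidises prostaglandin E2 to an inactive form. Wild-type female normal colon had 124, 98.8 and 122 CPM and the tumours 6.11, 19.2 and 16.0 CPM. Wild-type male normal colon had 90.1, 77.2 and 158 CPM and the tumours 28.5, 23.0 and 43.2 CPM. Neither pair of groups overlapped, and the female tumours were the lowest of all groups. Hpgd fell by 3.05 on the log2 scale in wild-type female tumours (SE 0.41, edgeR adjusted p = 1.81e-05), to 0.121 times the normal level, and by 1.76 in wild-type male tumours (SE 0.39, edgeR adjusted p = 0.00253), to 0.296 times. In knock-in males the tumours had 75.6, 62.1 and 28.7 CPM and normal colon 66.4, 109 and 79.6 CPM. Tumour library 1 was above normal library 1, and the log2 change was -0.62 (SE 0.37, edgeR adjusted p = 0.249). Of 7 markers of mature colonocytes, the cells that line the colon, 6, 5 and 7 were lower in tumours of wild-type males, knock-in males and wild-type females. Their summed level was 1665 to 3680 CPM in normal colon and 557 to 686 CPM in tumours of wild-type males, 1214 to 1889 and 634 to 1546 CPM in knock-in males, and 2751 to 5919 and 382 to 581 CPM in wild-type females, with none at 0 in any library. Of the 7 epithelial markers, 6 were lower and 1 higher in both wild-type tumour comparisons, and in knock-in males 1 was higher and none lower. Their sum was 6060 to 8038 CPM in normal colon and 5251 to 5512 CPM in tumours of wild-type males, 5968 to 6344 and 5629 to 6428 CPM in knock-in males, and 7657 to 8241 and 4716 to 5489 CPM in wild-type females. The part of both marker lists in the Hpgd result was not tested.

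The log2 ratio of Ptgs2 to Hpgd transcripts, each per kilobase of exon, set 1 gene of synthesis against 1 of breakdown, without a measure of prostaglandins. It averaged -4.13 ± 1.29 (SD, n = 3) in normal colon and -0.02 ± 1.34 in tumours of wild-type males, and -5.36 ± 0.34 and 1.59 ± 0.63 in wild-type females. In knock-in males it averaged -4.83 ± 0.61 in normal colon and -1.48 ± 0.23 in tumours. Ptgs2 was above Hpgd in 4 of 6 wild-type tumour libraries, all 3 of the females and library 2 of the males. It was below Hpgd in the 3 knock-in tumours and in all 12 normal libraries. This split depends on the scaling. By counts without exon length, Ptgs2 was above Hpgd in 6 of 6 wild-type tumours, 1 of 3 knock-in tumours and no normal library.

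Ptger3 (chr3:157566892-157645888, plus strand) encodes EP3, the receptor that mostly lowers cAMP. Wild-type male normal colon had 9.59, 6.14 and 14.7 CPM and the tumours 1.44, 0.291 and 1.47 CPM. Wild-type female normal colon had 9.98, 8.36 and 16.9 CPM and the tumours 0.272, 1.99 and 0.761 CPM. In these 2 comparisons every tumour library was below every normal library, and the lowest tumour values rested on 1 count in male library 2 and 2 counts in female library 1, below the level of 3 counts in those libraries (0.873 and 0.407 CPM). Ptger3 fell in both, with log2 changes of -3.02 in the males (SE 0.47, edgeR adjusted p = 0.000126) and -3.50 in the females (SE 0.49, edgeR adjusted p = 1.42e-05). Without tumour library 2 the female change was -4.42 (edgeR adjusted p = 9.33e-06). Knock-in males had 8.88, 9.94 and 10.9 CPM in normal colon and 2.59, 4.02 and 2.15 CPM in tumours, a fall of 1.74 (SE 0.42, edgeR adjusted p = 0.00909).

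All 10 smooth muscle markers fell in each tumour comparison, with median log2 fold changes of -3.94, -2.49 and -4.04 in wild-type males, knock-in males and wild-type females. Ptger3, known from smooth muscle, also fell in all 3 comparisons, and Ptgis, likewise known from it, fell in the male comparisons and missed the threshold in wild-type females. Their summed level was 2978 to 10016 CPM in normal colon and 241 to 826 CPM in tumours of wild-type males, 4722 to 8507 and 942 to 1074 CPM in knock-in males, and 2038 to 4726 and 214 to 259 CPM in wild-type females. Colonocyte markers were also lower in all 3 comparisons, as given above. In wild-type female against male normal colon the smooth muscle markers had a median log2 change of -1.14, beside 0.21 for Ptger3 and -0.85 for Ptgis. In knock-in against wild-type male tumours the values were 1.22, 1.25 and 0.26. Neither gene passed the threshold in these 2 comparisons. The part of the smooth muscle or colonocyte markers in the falls of Ptgis and Ptger3 was not tested. Ptger3 is also known from enteric neurons, and of 7 markers of these cells 5, 3 and 4 were lower in the 3 comparisons and 1 was higher in wild-type females. Their median log2 changes were -1.92, -1.25 and -2.93 in the 3 comparisons, and the marker Prph was at 0 in all 3 wild-type female tumours. Their summed level was 22.1 to 53.0 CPM in normal colon and 26.8 to 80.9 CPM in tumours. This sum did not follow the median marker and is not read as a level of enteric neurons.

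**Figure D4:**
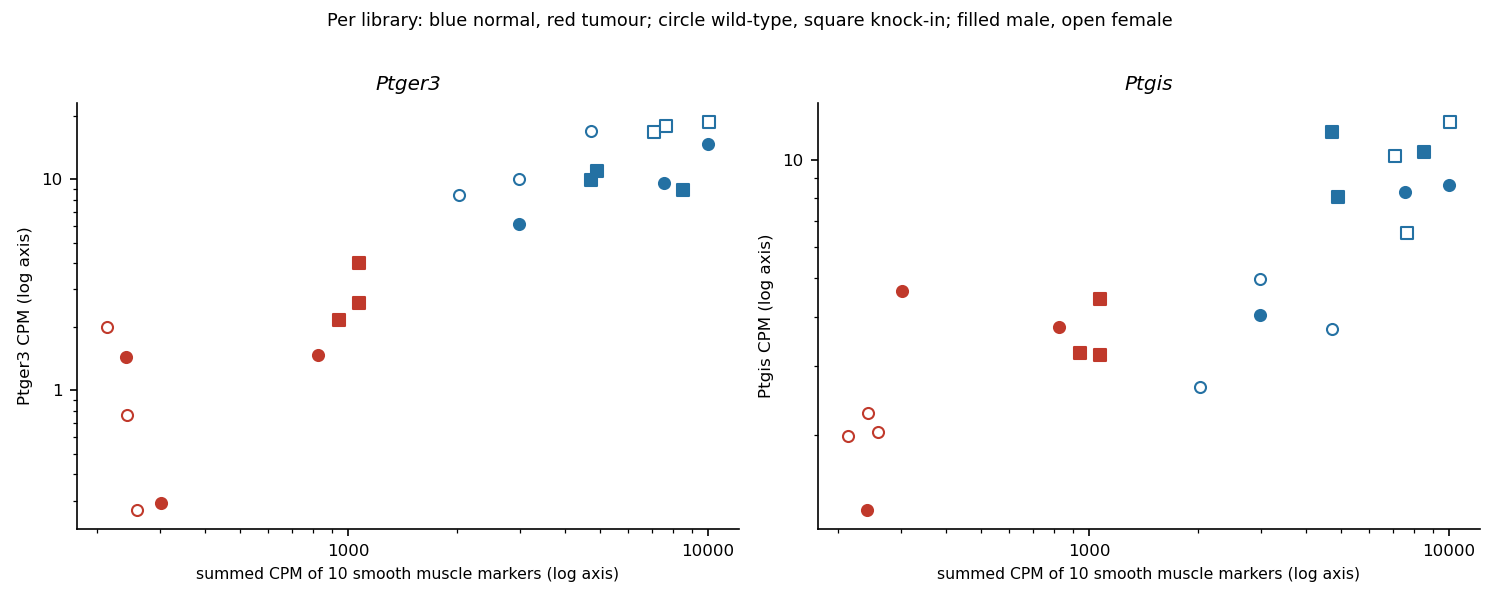
Ptger3 (left) and Ptgis (right) in CPM against the summed CPM of 10 smooth muscle markers, 1 point per library on log axes (blue normal, red tumour, squares knock-in, open symbols female). Tumours lie between 214 and 1074 CPM of markers and normal colon between 2038 and 10033 CPM, and in the left panel all tumours are below all normal libraries.

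Ptger4 and Ptger2 encode EP4 and EP2, the receptors that raise cAMP. Ptger4 (chr15:5206661-5244187, minus strand) was even across the male groups, at 45.3 ± 2.04 CPM (SD, n = 3) in wild-type normal colon, 43.3 ± 2.05 in wild-type tumours, 42.4 ± 3.59 in knock-in normal colon and 43.2 ± 3.56 in knock-in tumours. Wild-type females had 36.2, 30.2 and 33.3 CPM in normal colon and 33.7, 45.2 and 54.8 CPM in tumours, and tumour library 1 lay inside the normal range. Ptger4 rose there by 0.42 on the log2 scale (SE 0.15, edgeR adjusted p = 0.0242). Tumour libraries 2 and 3 are 2 of the 3 libraries with the label numbers 152 to 154, and with these numbers as a covariate the change was 0.15 (edgeR adjusted p = 0.479). It also missed the threshold without normal library 2 (0.36, edgeR adjusted p = 0.09), normal library 3 (0.42, 0.055), tumour library 2 (0.41, 0.056) or tumour library 3 (0.24, 0.194). Ptger2 (chr14:44988195-45003820, plus strand) was the lowest receptor, with group means from 1.85 to 3.41 CPM and 6 to 67 counts a library, and passed the threshold in no comparison.

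Ptger1 (chr8:83666678-83672753, plus strand) encodes EP1, which raises intracellular calcium. Its counts are uncertain, because whether counting used strand is not given in the sources used here, so that reads from the opposite strand could be among them. Knock-in males had 66.2, 60.5 and 75.3 CPM in normal colon and 43.2, 50.3 and 54.9 CPM in tumours, which did not overlap, a fall of 0.44 on the log2 scale (SE 0.13, edgeR adjusted p = 0.0207). The knock-in fall missed the threshold without normal library 3 (-0.36, edgeR adjusted p = 0.0968) or tumour library 1 (-0.40, 0.055), and with an offset for GC content and length it was -0.18 (0.251). In wild-type females, with 50.3, 44.2 and 53.3 CPM in normal colon and 39.4, 48.2 and 35.0 CPM in tumours, the change of -0.27 (SE 0.13, edgeR adjusted p = 0.0901) became -0.56 (3.16e-04) with that offset. Without tumour library 2 it was -0.41 (edgeR adjusted p = 0.0194).

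The mix of the 3 receptors EP2, EP3 and EP4, taken per kilobase and without the uncertain EP1, shifted with the fall of Ptger3. EP3 made up 12.7 to 26.2% of the 3 in wild-type male normal colon and 0.718 to 3.75% in tumours, 17.3 to 21.6% and 4.90 to 9.98% in knock-in males, and 23.6 to 34.5% and 0.851 to 4.72% in wild-type females. EP4 was the main receptor of the 3 in every library, from 58.2% in a wild-type female normal library to 94.6% in a wild-type male tumour library.

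Knock-in and wild-type male tumours differed in none of the 9 genes in edgeR's test, where 14.5% of all genes passed. At an unadjusted p under 0.05 there was 1 gene, and DESeq2 called 1, in both cases Ptger3. The share of all genes at that unadjusted level is not given. Over all genes DESeq2 called 2972 of 15592 here. With 2.59, 4.02 and 2.15 CPM, all 3 knock-in tumours were above the wild-type tumours at 1.44, 0.291 and 1.47 CPM, a log2 difference of 1.25 (SE 0.48, edgeR adjusted p = 0.0836, DESeq2 adjusted p = 0.0405). Ptgs2 was 0.85 lower on the log2 scale in knock-in tumours (SE 0.49, edgeR adjusted p = 0.243) and Hpgd 0.80 higher (SE 0.38, edgeR adjusted p = 0.161), both with overlapping libraries. Summed smooth muscle markers were 942 to 1074 CPM in knock-in and 241 to 826 CPM in wild-type male tumours, and their part in the Ptger3 difference was not tested.

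Whether the tumour effect differed between the genotypes was also tested directly, in males. None of the 9 genes passed in edgeR, against 1.51% of all genes. At an unadjusted p under 0.05 there were 2 of the 9, and the share of all genes at that level is not given. DESeq2 called 0 of the 9, beside 1326 of 13744 genes. The Hpgd fall was smaller in knock-in males by 1.14 on the log2 scale (SE 0.53, edgeR adjusted p = 0.194), and Ptger1 fell more by 0.45 (SE 0.18, edgeR adjusted p = 0.134). So a Hpgd call in wild-type males and none in knock-in males is not by itself a difference between them.

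In normal colon the genotypes were compared within each sex. Ptgs1 and Ptgis were higher in knock-in female normal colon, and 2 of 9 genes passed in edgeR, against 16% of all genes. Ptgs1 had 46.9, 63.1 and 47.0 CPM in knock-in and 18.0, 16.9 and 28.3 CPM in wild-type female normal colon, and the groups did not overlap. The difference was 1.32 on the log2 scale (SE 0.28, edgeR adjusted p = 0.00469), or 2.50-fold. Ptgis had 10.2, 12.5 and 6.51 CPM against 4.99, 2.65 and 3.72 CPM, also without overlap, a log2 difference of 1.33 (SE 0.38, edgeR adjusted p = 0.0237). The Ptgis call was lost without wild-type library 2 (edgeR adjusted p = 0.114), wild-type library 3 (0.0506), knock-in library 1 (0.055) or knock-in library a (0.113), and with the offset for GC content and length (0.0786).

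Between male genotypes, none of the 9 genes passed in normal colon in edgeR, and 0 in DESeq2. At an unadjusted p under 0.05 in edgeR there were 0 of the 9, and the share of all genes at that level is not given. Only 2 genes of all tested, or 0.0126%, passed in this comparison in edgeR, and 6 of 15899 in DESeq2. Ptgs1 had 58.1, 48.5 and 48.9 CPM in knock-in and 46.7, 32.0 and 47.3 CPM in wild-type male normal colon. The direct test of genotype by sex in normal colon called 0 of 9 genes in edgeR, against 2.54% of all genes. DESeq2 also called 0 of 9, beside 920 of 14667 genes. In edgeR 2 of the 9 were at an unadjusted p under 0.05, a level at which the share of all genes is not given. These were Ptgs1, with a log2 difference of 1.02 between the sexes' knock-in effects (SE 0.38, edgeR adjusted p = 0.171), and Ptges, with 0.86 (SE 0.41, edgeR adjusted p = 0.28). A difference between the sexes in the knock-in effect was therefore not shown.

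Wild-type female normal colon, which enters both that comparison and the sex comparison, was low in several genes. Against wild-type male normal colon, 3 of 9 genes passed in edgeR, all lower in females, where 15.9% of all genes passed. Ptgs1 was lower by 1.01 on the log2 scale (SE 0.28, edgeR adjusted p = 0.0207), Ptges by 1.13 (SE 0.30, edgeR adjusted p = 0.0159) and Ptger4 by 0.44 (SE 0.15, edgeR adjusted p = 0.047). Ptgs2, at 5.02 to 9.51 CPM in females and 10.6 to 30.7 CPM in males, missed the threshold with a log2 difference of -1.16 (SE 0.53, edgeR adjusted p = 0.149). None of the 3 calls held without library 1 of the wild-type female normal colon, the deepest library (edgeR adjusted p = 0.0942 for Ptgs1, 0.0978 for Ptges and 0.0689 for Ptger4). The Ptgs1 call was also lost without male library 1 (0.0779) or female library 2 (0.103), the Ptges call without male library 2 (0.0618), and the Ptger4 call without any other library of the 6 (0.0771 to 0.173).

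Several cell type markers differed along with these genes. In wild-type female normal colon the smooth muscle markers summed to 2038 to 4726 CPM, the 8 fibroblast markers to 1095 to 1298 CPM and the 6 endothelial markers to 53.9 to 85.2 CPM. Knock-in females had 7092 to 10033, 2051 to 2527 and 132 to 136 CPM, and wild-type males 2978 to 10016, 2191 to 2474 and 119 to 168 CPM. In knock-in against wild-type females 5 of 10, 4 of 8 and 4 of 6 of these markers were higher, and in wild-type females against males 4, 4 and 5 were lower. No marker of these 3 lists was at 0 in any library. Markers of mesothelium, the outer lining of the gut, went the other way: knock-in females had 4 of 6 lower than wild-type females, with Upk3b at 0 in all 3 knock-in libraries, and 2 of 6 were higher in wild-type females than in males. Their median log2 change was -2.92 in knock-in against wild-type females and 2.08 in wild-type females against males. Their sum, which includes the keratin gene Krt19, was 1919 to 2335 CPM in wild-type females, 1946 to 2124 CPM in knock-in females and 1688 to 2212 CPM in wild-type males. The sum thus did not follow the median marker and is not read as a level of mesothelium. Rn45s was also lowest in wild-type female normal colon, at 2.84 to 3.18% of counts against 4.85 to 5.96% in knock-in females and 4.90 to 8.26% in wild-type males. The part of these markers and of Rn45s in the Ptgs1, Ptgis, Ptges and Ptger4 differences was not tested.

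The remaining sex comparisons called none of the 9 genes in edgeR. Between female and male wild-type tumours 0.86% of all genes passed in edgeR. At an unadjusted p under 0.05 there were 3 of the 9, and the share of all genes at that level is not given. DESeq2 called 2 of the 9, beside 835 of 13744 genes. Hpgd was 1.21 lower in female tumours on the log2 scale (SE 0.40, edgeR adjusted p = 0.114, DESeq2 adjusted p = 0.0284), Ptger1 0.50 lower (SE 0.13, edgeR adjusted p = 0.0576, DESeq2 adjusted p = 0.0106) and Ptgs1 0.76 lower (SE 0.28, edgeR adjusted p = 0.135). With only these 2 groups in the fit, Ptgs1 and Ptger1 passed (edgeR adjusted p = 0.0424 and 0.0473), beside 1166 of 14393 genes. Between female and male knock-in normal colon 0.584% of all genes passed in edgeR, and DESeq2 called 583 of 15899 genes and 0 of the 9. In edgeR 1 of the 9 genes was at an unadjusted p under 0.05, again without the share of all genes. Ptger3 was the gene in question, at 16.7, 18.7 and 17.9 CPM in females and 8.88, 9.94 and 10.9 CPM in males (log2 difference 0.84, SE 0.39, edgeR adjusted p = 0.315).

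Whether the tumour effect itself differed between the sexes was tested in wild-type mice. None of the 9 genes passed in edgeR, against 1.12% of all genes. At an unadjusted p under 0.05 there were 3 of the 9, and the share of all genes at that level is not given. DESeq2 called 0 of the 9, beside 577 of 15285 genes. The rise of Ptges was larger in females by 1.11 on the log2 scale (SE 0.41, edgeR adjusted p = 0.205), the fall of Hpgd by 1.29 (SE 0.55, edgeR adjusted p = 0.293), and the change of Ptger4 was 0.49 higher (SE 0.21, edgeR adjusted p = 0.293). Without library 2 of the wild-type female normal colon, which had the highest Ptges level of its group, the Ptges difference was 1.64 (edgeR adjusted p = 0.0479). Several of the comparisons above share a group, so their calls are not independent.

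Around the 9 genes lie the enzymes that release arachidonic acid, other prostanoid synthases, receptors and transporters, and the lipoxygenase branch. Of 59 such genes, 52 were tested, and 27 passed in tumours of wild-type males (10 higher, 17 lower), 17 in knock-in males (6 and 11) and 34 in wild-type females (16 and 18). These are 51.9, 32.7 and 65.4% of the genes tested in the lists, beside 35.7, 20.4 and 49.1% of all genes tested. For 2 transporters the change passed the threshold with the same sign in all 3 comparisons. Slco2a1, which carries prostaglandins into cells for breakdown, fell by 0.94 on the log2 scale in wild-type males (SE 0.25, edgeR adjusted p = 0.008), by 1.02 in knock-in males (SE 0.25, edgeR adjusted p = 0.0108) and by 2.22 in the females (SE 0.26, edgeR adjusted p = 3.47e-06). Abcc4, an exporter of prostaglandins, rose by 1.33, 0.93 and 2.07 (SE 0.27, 0.27 and 0.28, edgeR adjusted p = 0.00121, 0.023 and 1.31e-05). For Slco2a1, wild-type females had 136, 129 and 137 CPM in normal colon and 17.9, 39.1 and 29.0 CPM in tumours, the widest gap of the 3 comparisons.

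**Figure D5:**
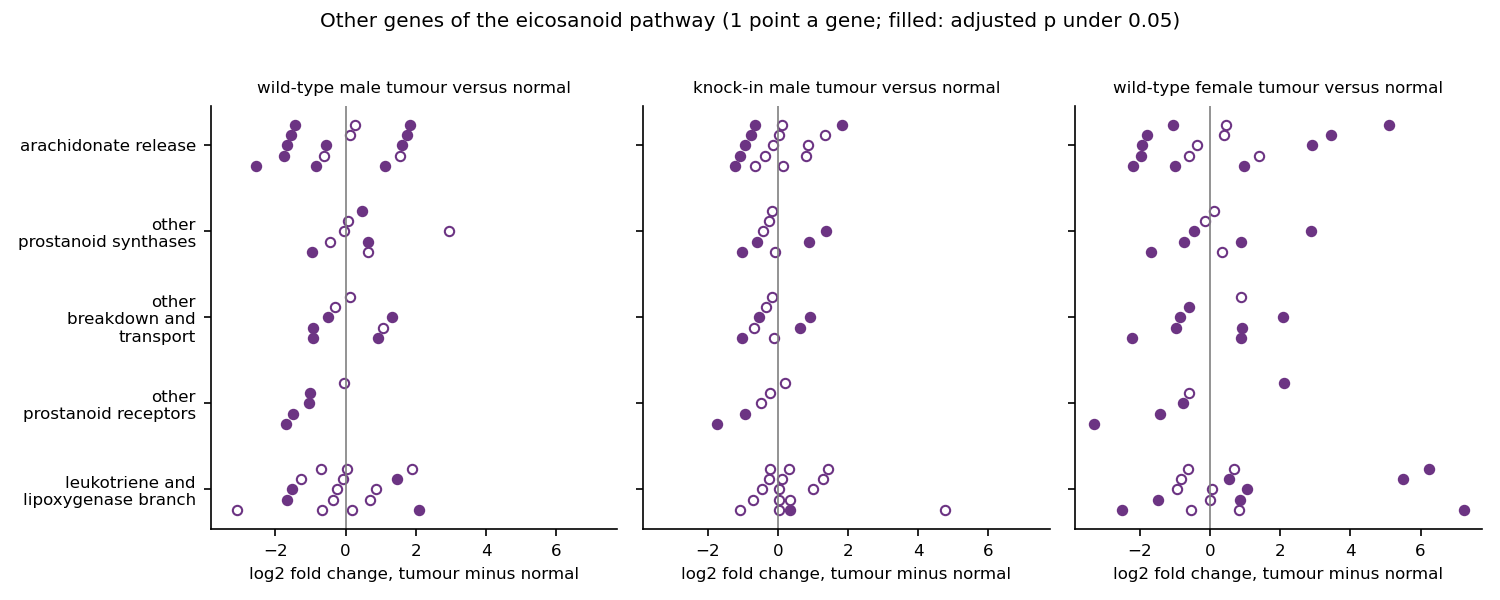
Log2 fold changes (x axis, tumour minus normal, edgeR) of the genes tested in 5 lists around the 9 genes, 1 point per gene and 1 panel per comparison, filled where the adjusted p was under 0.05. Filled points lie on both sides of 0 in the lists of arachidonate release, synthases and transport in all 3 panels.

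Among the enzymes of arachidonate release, the genes did not move one way. Of 15 tested, 4 were higher and 7 lower in tumours of wild-type males, 1 and 5 in knock-in males, and 4 and 6 in wild-type females, or 73.3, 40 and 66.7% beside 35.7, 20.4 and 49.1% of all genes. Among secreted phospholipase genes, Pla2g2a rose by 3.45 in wild-type female tumours (SE 0.66, edgeR adjusted p = 5.07e-04), Pla2g12a by 2.91 in the same comparison (SE 0.40, edgeR adjusted p = 1.47e-05) and Pla2g2d by 1.85 in wild-type male tumours (SE 0.54, edgeR adjusted p = 0.0128). Pla2g4a, the cytosolic phospholipase that feeds the cyclooxygenases, fell by 0.84 in wild-type male tumours (SE 0.19, edgeR adjusted p = 0.00273) and by 1.06 in wild-type female tumours (SE 0.19, edgeR adjusted p = 1.62e-04). In knock-in male tumours it had 47.1, 61.4 and 35.2 CPM against 25.3, 30.8 and 26.7 CPM in wild-type male tumours, a log2 difference of 0.81 (SE 0.19, edgeR adjusted p = 0.0141). Pla2g3, another secreted phospholipase gene, fell by 2.54 in wild-type males (SE 0.35, edgeR adjusted p = 4.07e-05), by 1.21 in knock-in males (SE 0.32, edgeR adjusted p = 0.0146) and by 2.20 in the females (SE 0.34, edgeR adjusted p = 3.69e-05). Mgll, the lipase that frees arachidonic acid from an endocannabinoid, fell by 1.67, 1.09 and 0.99 in tumours of wild-type males, knock-in males and wild-type females (edgeR adjusted p = 4.15e-05, 0.00393 and 0.00214) and was 1.68 higher in knock-in than in wild-type female normal colon (SE 0.23, edgeR adjusted p = 1.47e-04).

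Other synthases split as well: of 8 tested, 2 were higher and 1 lower in wild-type male tumours, 2 and 2 in knock-in males, and 2 and 3 in wild-type females. These are 37.5, 50 and 62.5%, beside 35.7, 20.4 and 49.1% of all genes. Ptges3, the cytosolic prostaglandin E synthase and co-chaperone p23, rose in all 3 comparisons, by 0.47, 0.88 and 0.88 (edgeR adjusted p = 0.0146, 0.00204 and 5.55e-05). Cbr1, a carbonyl reductase that turns prostaglandin E2 into F2α, fell in all 3 comparisons, by 0.96, 1.01 and 1.67 (edgeR adjusted p = 0.00585, 0.00939 and 3.03e-05). Hpgds, a prostaglandin D synthase of immune cells, rose by 0.65 in wild-type male tumours (SE 0.18, edgeR adjusted p = 0.00938), fell by 0.47 in wild-type female tumours (SE 0.18, edgeR adjusted p = 0.0388) and was 0.78 lower in male tumours of the knock-in than of the wild type (SE 0.18, edgeR adjusted p = 0.0123). Among 5 other receptors tested, the nuclear receptor gene Ppard fell by 1.01, 0.92 and 1.42 in the 3 tumour comparisons (edgeR adjusted p = 6.02e-04, 0.00425 and 1.03e-05). Pparg, which oxidised lipids can activate, was 1.19 higher in male tumours of the knock-in than of the wild type (SE 0.19, edgeR adjusted p = 0.0035), at 34.7, 40.9 and 40.5 CPM against 13.4, 23.9 and 15.2 CPM.

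The genes whose log2 CPM followed each of the 9 most closely over the 21 libraries were also listed, by Pearson's r among 12559 genes, as a description. Fmo5 was nearest to Hpgd (r = 0.967 over 21 libraries, 0.866 over the 12 normal and 0.959 over the 9 tumour libraries), and Adh1 to Ptger3 (r = 0.985, 0.806 and 0.962). For Ptgs2, Armc10 was nearest at 0.953 and the cytokine gene Il11 followed at 0.943, with 0.757 in normal and 0.654 in tumour libraries. Ptgs1 was nearest to Daam2 (r = 0.927, 0.931 and 0.925) and shared its pattern with Axl and the collagen gene Col6a1. Ptges was nearest to Uck2 (0.933), Ptgis to Mrgprf (0.928), Ptger1 to Npepl1 (0.872), Ptger4 to Mycn (0.801) and Ptger2 to Gbgt1 (0.717). Libraries of a group and the gap between tumour and normal colon are shared by all these genes, so the r over 21 libraries is partly that gap.

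In the authors' deposited table, adjusted p-values under 0.05 were listed for 5 of the 9 genes in wild-type male tumours against normal colon, 4 in knock-in male tumours against normal colon, 1 between male tumour genotypes and 2 between female normal genotypes. The authors' deposited table gave log2 fold changes of 2.43 for Ptgs2, -1.78 for Hpgd and -3.05 for Ptger3 in wild-type male tumours. In the authors' deposited table, Ptger3 was 1.25 higher in male tumours of the knock-in than of the wild type, with an adjusted p of 0.0413.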

How the data were processed

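Ribosome-depleted total RNA of 21 colon libraries was sequenced with random-hexamer priming, per the labels' protocols. Reads were trimmed with Trimmomatic, aligned with HISAT2 to mm10 and counted with featureCounts, per the submitters' processing notes. The deposited table holds raw counts per gene. The annotation, strand setting and handling of shared reads are not given in the sources used here. The authors also deposited a DESeq2 output with log2 fold changes and adjusted p-values. Its 21 per-library columns were not used. Among the count columns, 2 share a name and served as knock-in female normal libraries a and b.

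Counts were tested with edgeR 4.0.16 (quasi-likelihood F test, two-sided, TMM scaling, filterByExpr, robust fit, R 4.3.3) on all 21 libraries in a single fit with 1 coefficient per group. There were 9 comparisons and 3 interactions, with Benjamini-Hochberg adjustment over 15936 genes at 0.05. Counts of genes at an unadjusted p under 0.05 are given without the share of all genes at that level. Each standard error is the size of the log2 fold change over the square root of F. Lack of overlap between groups describes the libraries only, and its share over all genes is not given. With 3 libraries against 3, an exact permutation test cannot go under a two-sided p of 0.1. CPM used TMM-scaled totals, with a prior count of 2 on the log2 scale. The fitting code was tested on simulated data. Alternatives were DESeq2 1.42.0, its size factors, library totals, no low-count filter, only the compared groups, label numbers 152 to 154 as a covariate, an offset for GC content and length (95.3% of the genes tested had both), the replicate number as a block, and each library left out. A depth of 3 counts was taken as the floor.

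Same-numbered libraries deviated together in each of the 3 pairs of wild-type male tumour and normal colon only (r = 0.169, 0.174 and 0.215 across genes), so the numbers may pair those. The values reported come from the fit without pairing. The replicate block used the numbers in all 18 numbered libraries, also in groups that did not deviate together. No fit paired the wild-type males alone. The members and gene lists were chosen with earlier results of these data known. All 9 members were named. From each of 5 pathway lists up to 2 genes with the largest change past the threshold and a mean of at least 50 counts in a group could be named per comparison, beside 11 fixed genes of the pathway. Markers of 12 cell types are given as counts and ranges. Some items are not reported here. For each member the 3 genes with the highest Pearson's r were listed. Gene positions come from the GRCm38 annotation, the assembly that mm10 names, and promoters from RefSeq.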

Additional observations from a re-analysis of the deposited data

How the results depend on the processing

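Of 28 gene and comparison pairs past the threshold in at least 1 setting, 19 passed in the values reported. Of these 19, 11 stayed on the same side of the threshold under every alternative that kept all libraries, and 10 also when any library was left out. None of the 28 changed sign. Among pairs never past the threshold, 101 of 1308 values changed sign, none larger than 0.436 on the log2 scale. The larger changes in the number of the 9 genes called were as follows. The DESeq2 test called 1 gene in knock-in against wild-type male tumours (2972 of 15592 over all genes). It called 2 in female against male wild-type tumours (835 of 13744), where fitting only the compared groups also called 2 (1166 of 14393). The offset for GC content and length left 1 in knock-in against wild-type female normal colon (2542 of 15936 over all genes). Leaving out a library gave 3 to 5 calls in wild-type male, 3 to 4 in knock-in male and 4 to 5 in wild-type female tumours. There were 1 to 2 such calls in knock-in against wild-type female normal colon and 0 to 2 in female against male wild-type normal colon. In the test of sex by tumour there were 0 to 1. The shares of all genes called in the fits without a library are not given. The cause of these changes was not tested. Fitting only the compared groups also ended the calls of Ptgis in wild-type male tumours (adjusted p = 0.0933), Ptger1 in knock-in male tumours (0.104), Ptger4 in wild-type female tumours (0.0786) and Ptges in female against male wild-type normal colon (0.0893, and 0.063 with the GC content and length offset), and without the low-count filter Ptger4 in that last comparison had 0.0525. Without wild-type female normal library 2, Ptges passed in knock-in against wild-type female normal colon (1.30, 0.00966).

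The replicate number as a block, on 18 numbered libraries, gave 5, 4 and 5 calls in tumours of wild-type males, knock-in males and wild-type females. Over all 15772 genes in this fit, 5274, 2900 and 7604 passed. The block alone changed no call. The block with the GC content and length offset gave Ptges in knock-in males an adjusted p of 0.0244 and Ptgis 0.0614. In the test of Ptgs1 in female against male wild-type normal colon that fit gave 0.0707. The knock-in female normal comparisons could not be blocked, because 2 of their columns carry no number. Scaling by library totals moved the median of all genes tested to 0.151 in wild-type female tumours, 0.135 in the test of sex by tumour and 0.103 in knock-in against wild-type female normal colon, and changed no call of the 9 genes. Depth limits Ptger2 and the low tumour values of Ptger3 most.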

Other observations

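The lipoxygenase branch, which competes with the cyclooxygenases for arachidonic acid, is given here by its counts. Of its 16 genes tested, 8 passed in wild-type female tumours (6 higher, 2 lower), 4 in wild-type male tumours (2 and 2) and 1 in knock-in male tumours, in edgeR's test. These are 50, 25 and 6.25%, beside 49.1, 35.7 and 20.4% of all genes tested. Alox15, a lipoxygenase of epithelial and myeloid cells, had 0.761, 0.976 and 0.774 CPM in wild-type female normal colon and 61.7, 36.1 and 89.8 CPM in the tumours, a log2 change of 6.24 (SE 0.67, edgeR adjusted p = 2.06e-06). In wild-type males the change was 1.47 (SE 0.49, edgeR adjusted p = 0.027), and the difference between the sexes passed the threshold (4.77, SE 0.82, edgeR adjusted p = 0.0131). Wild-type male normal colon had 12.6, 18.6 and 7.66 CPM and knock-in female normal colon 11.8, 6.18 and 7.20 CPM, so the level in wild-type female normal colon was the low point of all groups. Between knock-in and wild-type female normal colon the log2 difference was 3.36 (SE 0.67, edgeR adjusted p = 0.00355). Alox12 rose by 5.49 in wild-type female tumours (SE 0.86, edgeR adjusted p = 9.10e-05) and by 2.10 in wild-type male tumours (SE 0.67, edgeR adjusted p = 0.0232).

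Receptors for other prostanoids were scarce. Ptgir, the prostacyclin receptor gene, had 0.338, 0 and 1.08 CPM in wild-type female normal colon and 2.26, 3.04 and 1.22 CPM in knock-in female normal colon, beside the higher Ptgis there. The Ptgir difference of 2.29 on the log2 scale passed the threshold (SE 0.61, edgeR adjusted p = 0.0169). Its size is uncertain, because the wild-type values are low and library 2 was at 0, under the floor of 3 counts. A link between Ptgir and Ptgis was not tested. Ptgfr, the receptor gene for prostaglandin F2α, had 1.69, 2.37 and 2.32 CPM in wild-type female normal colon and 0.272, 0.117 and 0.217 CPM in the tumours. It passed the threshold as lower there (edgeR adjusted p = 7.69e-04), but the tumour values are 2, 1 and 2 counts, under the floor of 3 counts, and no fold is given. Ptgdr2, a receptor gene for prostaglandin D2, stayed at or under 1.39 CPM in all libraries and was not tested.

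The remaining marker lists are given for the tumour comparisons of wild-type males, knock-in males and wild-type females, in this order, with edgeR's calls. Of 6 mesothelium markers 1 was higher, then 1 lower, then 5 lower. Of 6 macrophage markers 1 was higher and 2 lower in both wild-type comparisons, and none passed in knock-in males. There 2 were at an unadjusted p under 0.05, and the share of all genes at that level is not given. Of 8 mast cell markers 1 was higher and 1 lower, then 1 lower, then 2 higher and 1 lower. Of 6 tuft cell markers tested 1 was higher and 1 lower, then 1 lower, then 1 higher and 2 lower. Of 5 enteric glia markers 4, 2 and 2 were lower. Summed over the list, the glia markers had 9.36 to 26.4 CPM in normal colon and 2.62 to 9.69 CPM in tumours, the tuft cell markers 33.3 to 72.3 and 45.9 to 162 CPM, the mast cell markers 59.6 to 106 and 40.7 to 108 CPM, and the macrophage markers 109 to 245 and 132 to 265 CPM. Median log2 changes were -0.53, -0.78 and -0.92 for the tuft cell markers tested and 0.58, 0.59 and 2.04 for the mast cell markers. Neither the tuft cell nor the mast cell sum followed its median marker, and neither is read as a level of these cells. The mesothelium markers, with the keratin gene Krt19 among them, summed to 1627 to 2335 and 1059 to 1934 CPM. Their median log2 changes were 0.13, -0.65 and -3.46 in the 3 comparisons, and the sum is not read as a level of mesothelium.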
